A study of Mus musculus with 30 samples.

Results

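Injury of the distal colon by dextran sulfate sodium (DSS) was followed in mice with a specific-pathogen-free (SPF) microbiota. Of the 30 libraries of the series, 6 belong to this experiment and were chosen by their sample titles: 3 from DSS-treated SPF colon and 3 from untreated SPF colon. All mice were of the inbred strain C3H/HeOuJ and 10 weeks old, and the treated group had received 1.5% DSS for 4 days followed by 2 days of water. RNA was taken from whole tissue, with no sorting of cells, and read from the 3′ ends of messenger RNA. Nothing in the labels tells whether the 3 libraries of each group are separate animals, so all p-values rest on library-to-library spread that could be technical. A further 6 colon libraries came from mice of the same strain and age that were born germ-free and colonized with SPF microbiota at 5 weeks (COL), 3 with the same DSS course and 3 untreated. They were used to estimate the spread of each gene and to test whether the DSS effect differed between SPF and COL mice.

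DSS is a sulfated polymer that damages the epithelium of the colon and lets bacteria of the lumen reach the tissue beneath. The epithelium is a single sheet of absorptive colonocytes, mucus-secreting goblet cells and hormone-secreting cells that is renewed from stem cells at the crypt base, under opposed gradients of Wnt signals below and BMP and hedgehog signals above. The tissue answers such injury with interferon-gamma and neutrophil-attracting cytokines, and the surviving epithelium turns to a repair state marked by surface proteins of the Ly6 family.

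Levels are in CPM, the reads of a gene scaled to a common library size of reads on tested genes, after adjustment by the trimmed mean of M-values. Each CPM below is the level of 1 library, given in the order of replicates 1, 2 and 3, and fold changes are log2 of DSS over untreated ± standard error. A gene was called changed at a Benjamini-Hochberg adjusted p under 0.05 over all 12855 tested genes in edgeR's quasi-likelihood test. The 6 SPF libraries held 3830539 to 5745847 reads on genes. The tissue label was checked against its markers, and the check was mixed. Hoxb13, a homeobox gene of the hindmost gut, lay between 374 and 1260 CPM in all 6 libraries, and the small-intestinal genes Apoa1, Apoa4, Sis, Lct and Defa24 held at most 5 reads in any library. Other genes typical of the small intestine were detected. Fabp6, the bile acid binding protein of the ileum, had 28, 35 and 83 reads untreated and 1489, 359 and 96 reads after DSS (log2 change 3.55 ± 1.18, adjusted p = 0.056), highest in DSS replicate 1 and 2.17 without that library. Fabp2 had 2 to 120 reads, and Mep1a, a brush border protease, fell from 24.5, 45.7 and 34.7 CPM to 10.8, 10 and 3.84 CPM (-2.07 ± 0.40).

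DSS changed 3097 of 12855 tested genes (24.1%), of which 1570 rose (12.2%) and 1527 fell (11.9%). More than 2-fold changes numbered 1046 among the rises and 1234 among the falls. In 17.3% of all tested genes the 3 treated libraries all lay above the 3 untreated ones, and in 17.2% all lay below. The number of calls rested on single libraries: it became 2021 without DSS replicate 2 and 1915 without DSS replicate 3, and 1369 genes (10.6%) were called in the full fit and in each of the 6 fits that left out 1 SPF library. Counts of rises and falls over a list are those of the full fit and move in the same way: of 84 such counts over the 42 lists, 34 moved by more than 1.5 times without DSS replicate 3, 28 without DSS replicate 2, 26 without untreated replicate 1, 23 without DSS replicate 1, 19 without untreated replicate 2 and 18 without untreated replicate 3. Unless stated otherwise, each gene said below to rise or fall kept its call in all 6 of those fits and its groups did not overlap. The median log2 change of a list is to be read beside the median of all tested genes, -0.03. Its counts of rises and falls are to be read beside the 12.2% up and 11.9% down of all tested genes. The lists were chosen with earlier results of these data known, so shares beyond these are a description and not a test.

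**Figure D1:**
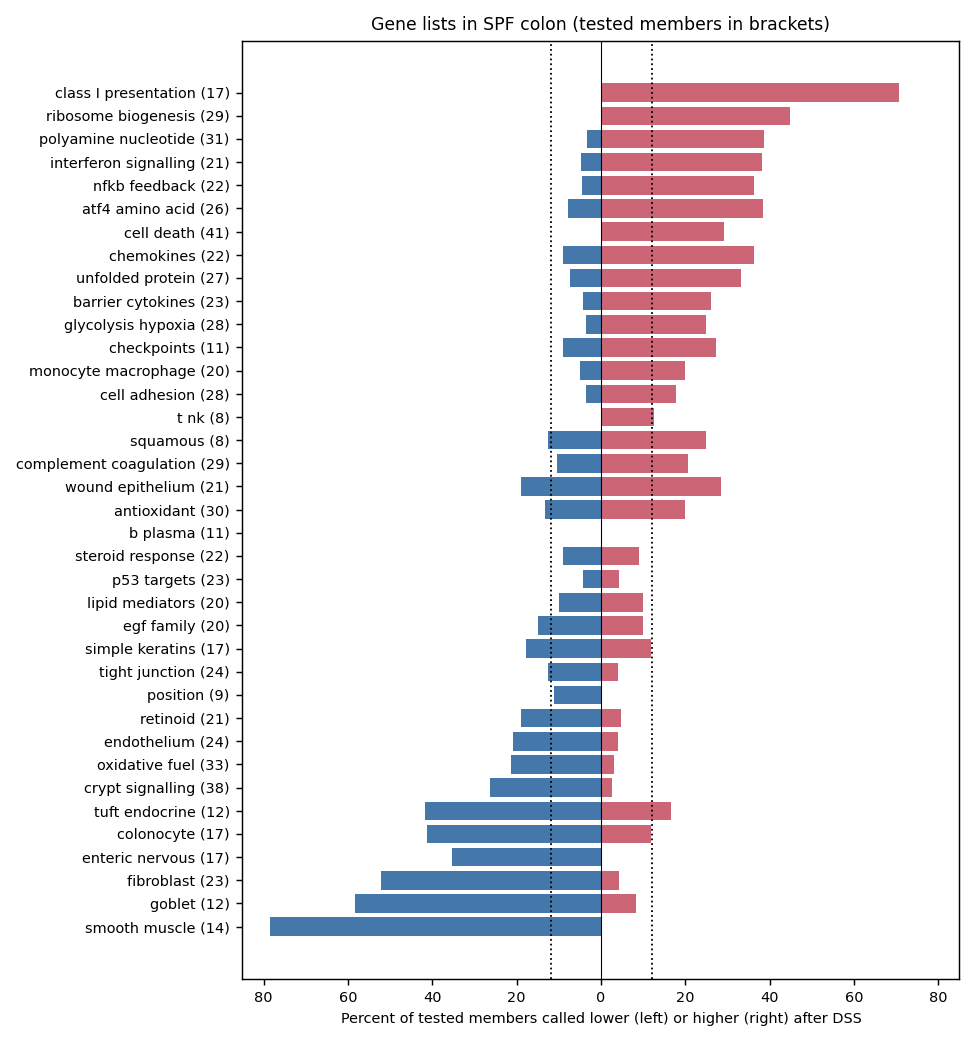
Share of the tested members of each gene list that was called higher (right, red) or lower (left, blue) after DSS in SPF colon, with the number tested in brackets; lists with at least 8 tested members are shown. The dotted lines mark the shares over all tested genes, 12.2% higher and 11.9% lower. Of the lists drawn, class I presentation (12 of 17) has the largest share higher and smooth muscle (11 of 14) the largest share lower. The lists were chosen with earlier results of these data known, so a share beyond the dotted lines is a description and not a test.

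The 23 markers of stratified squamous epithelium, which lines the anus, summed to 34.1 to 59.4 CPM untreated and 69.8 to 147 CPM after DSS, without overlap. Of them 4 were at 0 in all 6 libraries, among them Krt1 and Trp63, and Krt5 had at most 4 reads. Of 8 tested members Sprr1a and Ly6d rose and Krt14 fell in the full fit, and Sprr1a alone kept its call in all leave-one-out fits. Only 3 of the 8 had a positive change. Ly6d, whose groups overlapped, went from 2.63, 3.04 and 5.9 CPM to 4.56, 13.6 and 64.6 CPM. Together with Sprr1a, at 45.6, 75.6 and 61.3 CPM after DSS, it made up most of the sum in each treated library. Krt14 changed by -1.63 ± 0.57, and Sbsn, which did not pass, by -1.19 ± 0.49. The part of these genes in the other results was not tested.

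The largest rises, by a rule on size, level and stability, were those of Clca4b, Plet1, Lrg1, Iigp1, Ly6a, Ifi47, Igtp, Cxcl1, Il18bp, Nos2, Socs1, Trim15, Upp1, Ddah1 and Gbp4. Plet1 (chromosome 9, 50494525 to 50505482 in mm10), a surface protein of migrating epithelial cells and keratinocytes, was at 2.37, 0.435 and 7.43 CPM in untreated libraries and at 78.1, 668 and 866 CPM after DSS (log2 fold change 7.24 ± 1.03, adjusted p = 0.0012). DSS replicate 1 was far below the other treated libraries, yet above every untreated one. The rise was 8.62 without untreated replicate 3. Ly6a (chromosome 15, 74994877 to 74998031), which encodes the stem cell antigen Sca-1 and marks repairing colonic epithelium, went from 55.8, 217 and 231 CPM to 4680, 5310 and 6900 CPM (5.07 ± 0.45, adjusted p = 6.5e-06). Upp1 (chromosome 11, 9118103 to 9136170) encodes uridine phosphorylase, which releases uracil and ribose phosphate from uridine. It stood at 47.1, 56.7 and 97.5 CPM untreated and at 2010, 568 and 584 CPM after DSS, highest in replicate 1 (3.97 ± 0.59, and 3.09 without that library).

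Trim15 (chromosome 17, 36860691 to 36867210), a ubiquitin ligase of the tripartite motif family, rose evenly, from 4.21, 2.17 and 2.48 CPM to 42.1, 47.6 and 50.2 CPM (4.00 ± 0.36, adjusted p = 6.5e-06). Ddah1 (chromosome 3, 145758675 to 145894277) removes methylated arginines that inhibit nitric oxide synthases. Its level was 13.4, 19.6 and 9.52 CPM untreated and 78.8, 237 and 346 CPM after DSS (3.96 ± 0.49). Lrg1 (chromosome 17, 56119678 to 56122001), a secreted acute-phase glycoprotein, moved from 12.9, 12 and 3.24 CPM to 147, 222 and 1790 CPM, and its log2 rise of 6.28 ± 1.11 was 4.33 without DSS replicate 3. Il18bp (chromosome 7, 102014885 to 102018690), the secreted decoy that binds interleukin-18, went from 3.16, 5.65 and 1.71 CPM to 119, 49.2 and 40.9 CPM (4.32 ± 0.65, and 3.68 without DSS replicate 1). Il18 itself was at 232, 313 and 459 CPM untreated and 261, 261 and 200 CPM treated and did not pass (-0.48 ± 0.30, adjusted p = 0.27).

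The largest falls by the same rule were those of Cyp2c55, Cyp2f2, Hist1h4h, Dbp, Nr1d1, Cyp2d12, Sycn, Edn1, Pck1, Pcp4, Ttr, St8sia5, Clca1, Upk1a and Cyp2c68. Sycn (chromosome 7, 28540885 to 28542209) encodes syncollin, a protein of secretory granules. It was among the abundant genes of untreated colon, at 3330, 5460 and 3480 CPM, and stood at 921, 133 and 75.2 CPM after DSS (-3.44 ± 0.87, adjusted p = 0.016, and -5.30 without DSS replicate 1). Pck1 (chromosome 2, 173153048 to 173159273), the phosphoenolpyruvate carboxykinase that opens gluconeogenesis, fell from 516, 364 and 193 CPM to 37.6, 55.7 and 9.85 CPM (-3.37 ± 0.50). Edn1 (chromosome 13, 42301476 to 42307990), the precursor of the vasoconstrictor endothelin-1, fell from 86, 88.5 and 194 CPM to 25, 2.76 and 6.73 CPM (-3.40 ± 0.65, and -4.73 without DSS replicate 1).

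Cyp2f2 (chromosome 7, 27119909 to 27133660), a cytochrome P450 that activates aromatic compounds, was at 145, 171 and 57.3 CPM untreated and at 8.21, 6.3 and 0.721 CPM after DSS (-4.57 ± 0.60). Cyp2d12 (-3.58 ± 0.47) and Cyp2c68 (-3.11 ± 0.64, and -4.08 without DSS replicate 1) are of the same superfamily. The transcription factor Nr1d1 represses clock genes by time of day, and the labels used here give no hour of sampling; it was at 277, 69.1 and 267 CPM untreated and 18.8, 11.8 and 14.4 CPM treated (-3.76 ± 0.65). Hist1h4h fell by 4.29 ± 0.50 on the log2 scale (-5.09 without DSS replicate 1, -3.70 without untreated replicate 3). It is a copy of the histone H4 gene, whose many near-identical copies leave its count uncertain, since reads that fit several places were not counted.

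**Figure D2:**
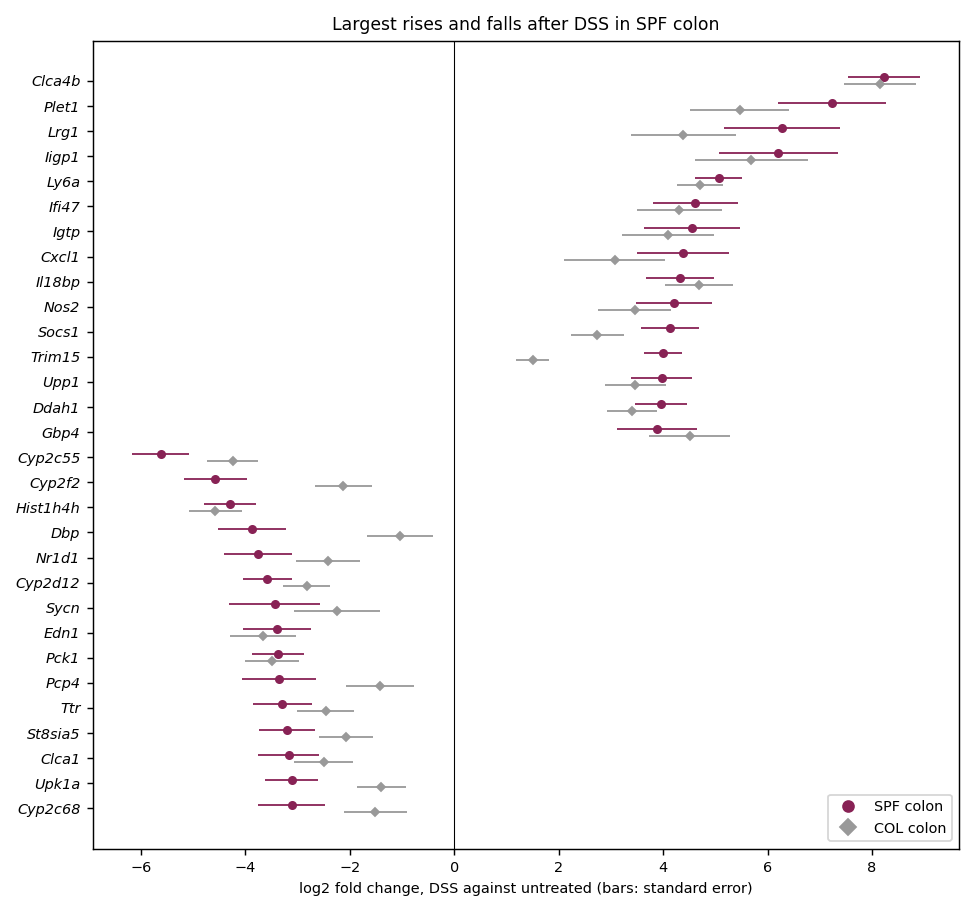
Log2 fold change of DSS over untreated for the 15 largest rises and 15 largest falls in SPF colon (circles), with the same genes in COL colon (diamonds); bars are standard errors from a fit of 3 libraries per group. All 30 lie on the same side of 0 in COL mice, and Trim15 (4.00 in SPF, 1.5 in COL) has the smallest p for a difference among them.

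Interferon-gamma acts on target promoters that hold the gamma-activated site (GAS, TTCNNNGAA); the interferon regulatory factors bind the interferon-stimulated response element (ISRE; GAAA, any 2 bases, GAAA), and SOCS proteins shut the pathway down. Of 21 tested genes of this machinery 8 rose and 1 fell (median log2 change 0.49), against 12.2% up and 11.9% down among all tested genes. Of the rises 5 were called in all 6 leave-one-out fits. Ifng itself, the ligand, had no read in any untreated library and 6, 2 and 8 reads after DSS, at least 4.94-fold higher against a floor of 3 reads over the group; intervals and floors cover counting error only. The feedback inhibitor Socs1 (chromosome 16, 10782240 to 10785536) went from 3.42, 0.87 and 3.24 CPM to 48.7, 54.9 and 28.1 CPM (4.13 ± 0.56), and Socs3, which restrains STAT3, from 9.47, 8.04 and 4 CPM to 29.9, 75.4 and 154 CPM (3.60 ± 0.62, and 2.90 without DSS replicate 3). Nlrc5, the transactivator of class I genes, rose by 3.74 ± 0.81 (4.99 without untreated replicate 2), and Usp18, which removes the ubiquitin-like ISG15, by 1.82 ± 0.46.

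Irf1, a transcription factor induced by interferons, was at 336, 258 and 455 CPM untreated and at 1560, 823 and 464 CPM after DSS (1.44 ± 0.40, adjusted p = 0.018). DSS replicate 3 was level with the highest untreated library, and the call was lost without DSS replicate 1 (0.87, adjusted p = 0.086), untreated replicate 1 (adjusted p = 0.063) or untreated replicate 2 (adjusted p = 0.073). Immunity-related GTPases, which act on the vacuoles of intracellular microbes, rose further: Igtp was at 12.9, 5.87 and 9.14 CPM untreated and at 381, 189 and 82.2 CPM treated (4.56 ± 0.92, 3.87 without DSS replicate 1), and Ifi47 rose by 4.62 ± 0.82. Iigp1 rose by 6.21 ± 1.14 (5.20 without DSS replicate 1) and Gbp4 by 3.88 ± 0.77. Members of these GTPase families resemble each other closely, and their counts are uncertain for that reason.

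The promoter stretches below are shown because they carry the motifs of this pathway in genes that rose. They are the 250 bases before the RefSeq start site in build GRCm38.p6, read in the direction of the gene, with the motif in capitals. Irf1 lies at chr11:53769764-53770013 on the plus strand with a GAS 90 bases before the start. Socs1 lies at chr16:10785537-10785786 on the minus strand with 2 overlapping ISRE matches, the first 83 bases before the start. B2m, the invariant chain of class I molecules, lies at chr2:122147437-122147686 on the plus strand with an ISRE 139 bases before the start, and Psmb8, a subunit of the immunoproteasome, at chr17:34197945-34198194 on the plus strand with a GAS 97 bases before the start.
Irf1: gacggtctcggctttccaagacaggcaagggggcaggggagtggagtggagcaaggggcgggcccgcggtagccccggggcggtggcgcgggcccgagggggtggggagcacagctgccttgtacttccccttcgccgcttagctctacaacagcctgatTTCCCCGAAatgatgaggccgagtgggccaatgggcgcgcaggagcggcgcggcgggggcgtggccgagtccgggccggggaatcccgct
Socs1: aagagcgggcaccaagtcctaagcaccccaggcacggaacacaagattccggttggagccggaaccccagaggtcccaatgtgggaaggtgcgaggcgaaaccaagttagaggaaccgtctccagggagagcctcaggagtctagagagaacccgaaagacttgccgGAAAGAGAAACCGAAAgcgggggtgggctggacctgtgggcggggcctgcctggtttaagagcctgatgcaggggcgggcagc
B2m: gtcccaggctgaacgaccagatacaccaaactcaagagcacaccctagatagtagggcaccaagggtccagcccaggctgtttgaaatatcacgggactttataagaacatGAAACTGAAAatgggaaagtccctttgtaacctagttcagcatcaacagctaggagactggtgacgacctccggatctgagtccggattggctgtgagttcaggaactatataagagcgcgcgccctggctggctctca
Psmb8: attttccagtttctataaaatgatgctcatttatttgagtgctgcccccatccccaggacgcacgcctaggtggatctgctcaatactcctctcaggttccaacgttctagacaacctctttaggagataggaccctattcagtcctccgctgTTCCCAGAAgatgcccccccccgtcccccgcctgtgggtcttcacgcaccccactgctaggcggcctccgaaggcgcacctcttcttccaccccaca

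Motifs were searched on both strands of 300-base windows (250 before to 50 after a start). The ISRE letters occurred in 4 of 10 matched class I presentation genes that rose and in 0 of 5 that did not. Of those 4 genes B2m kept its call in all leave-one-out fits, while Erap1, H2-T23 and Psme1 did not. Over all 26989 genes with a promoter the ISRE share was 3.98% (3.43% of 32807 windows). The GAS letters occurred in 2 of 4 matched signalling genes that rose, in 4 of 12 that did not, and in 9.55% of all genes (8.29% of windows); among class I genes that rose they occurred in 1 of 10, that of Psmb8, close to the share of all genes. Among the signalling genes the ISRE letters occurred in 1 of 4 that rose, that of Socs1, and in 2 of 12 that did not. A match is a description of these letters and not of a bound site. Of 64 genes in the 3 lists searched for motifs, 52 had a promoter in the RefSeq table.

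Class I molecules show peptides cut by the immunoproteasome and carried into the endoplasmic reticulum by the TAP transporter to CD8 T cells. Of 17 tested genes of this route 12 rose and 0 fell (median 1.21; all tested genes, 12.2% up and 11.9% down), 7 of them in all 6 leave-one-out fits, while all 17 summed to 4050 to 5470 CPM untreated and 7680 to 10300 CPM after DSS. Tapbpl, the peptide editor related to tapasin, was at 41.6, 35.2 and 41.1 CPM untreated and at 185, 222 and 202 CPM treated (2.37 ± 0.28). Psme2, a subunit of the proteasome activator PA28, went from 106, 113 and 147 CPM to 627, 481 and 630 CPM (2.25 ± 0.26). B2m rose from 622, 831 and 550 CPM to 2200, 1490 and 1160 CPM (1.27 ± 0.29), and the heavy chain H2-D1 by 1.02 ± 0.24. Another heavy chain, H2-K1 (-0.25 ± 0.43, adjusted p = 0.70), and tapasin itself, Tapbp (-0.01 ± 0.31, adjusted p = 0.99), did not pass. Tap2 and H2-T23, whose groups overlapped, and Psme1, Erap1 and Canx were called in the full fit and lost in 2 to 4 of the leave-one-out fits.

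Among chemokines, which draw leukocytes into tissue, 8 of 22 tested rose and 2 fell (median 0.69), 6 of the rises in all leave-one-out fits. The eosinophil and monocyte attractant Ccl8 was even, at 9.21, 6.74 and 9.9 CPM untreated and 40.1, 51.2 and 41.8 CPM after DSS (2.36 ± 0.31). Cxcl10, a ligand of the T cell receptor CXCR3, went from 2.1, 0.217 and 1.14 CPM to 32.8, 13.8 and 14.2 CPM (4.16 ± 0.95, and 4.81 without untreated replicate 1). Cxcl11, whose product binds the same receptor, is annotated as a polymorphic pseudogene in the reference strain. It had 3 reads in the untreated libraries together and 170, 145 and 62 reads after DSS. The ratio was 117 (95% exact interval 39.6 to 567). All 3 untreated reads were in replicate 2, and the fitted log2 change of 6.67 became 10.01 without that library and 6.03 without untreated replicate 3. Cxcl1 binds CXCR2 on neutrophils and stood at 2.37, 1.74 and 3.62 CPM untreated and 9.67, 26 and 131 CPM treated (4.39 ± 0.88, and 2.77 without DSS replicate 3). Ccl3 and Cxcl3, untested for low counts, had 0 reads untreated. After DSS Ccl3 had 3, 0 and 56 reads and Cxcl3 2, 9 and 47, mostly from replicate 3. Against the floor of 3 reads they were 18.2-fold and 17.9-fold higher, with 95% exact intervals that start at 14.4 and 14.1.

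Of 23 tested cytokines and receptors that act on the barrier 6 rose and 1 fell (median 0.88), 4 of the rises and the fall in all leave-one-out fits. Both receptors of tumor necrosis factor rose: Tnfrsf1b (chromosome 4, 145213463 to 145246870), found mainly on leukocytes and endothelium, from 26.8, 16.7 and 22.1 CPM to 57.6, 94.7 and 160 CPM (2.25 ± 0.35), and the widely expressed Tnfrsf1a by 1.14 ± 0.24. Their ligand Tnf went from 2.63, 2.17 and 0.952 CPM to 15.7, 16.3 and 18.5 CPM (3.15 ± 0.50). Il15, which sustains intraepithelial lymphocytes and natural killer cells, fell from 46, 23.9 and 19.4 CPM to 13.5, 6.1 and 3.6 CPM (-1.92 ± 0.43, and -2.60 without DSS replicate 1). Il22ra1, the epithelial receptor chain for interleukin-22, did not pass (0.60 ± 0.26, adjusted p = 0.095).

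Genes induced by NF-kB, many of which feed back on it, gave 8 rises and 1 falls among 22 tested members (median 0.53), 4 of the rises in all leave-one-out fits. The inhibitor Tnip3 rose from 23.7, 17.2 and 18.9 CPM to 56.7, 58.8 and 75.5 CPM (1.68 ± 0.24), and the co-regulator Nfkbiz by 1.35 ± 0.24. The adhesion molecule Icam1 went from 3.95, 6.09 and 2.09 CPM to 24.8, 12.8 and 25.5 CPM (2.38 ± 0.46), and Ripk2, the kinase below the NOD receptors for bacterial wall fragments, rose by 1.90 ± 0.38. Complement and clotting genes showed 6 rises and 3 falls in 29 (median 0.05), against 12.2% up and 11.9% down among all tested genes, with 2 rises and 1 fall in all leave-one-out fits. The central complement protein C3 moved from 30.8, 31.7 and 48.4 CPM to 66.2, 139 and 302 CPM (2.19 ± 0.45, and 1.48 without DSS replicate 3), C1ra rose by 1.25 ± 0.27, and Thbd, the endothelial thrombin receptor thrombomodulin, fell from 25, 31.7 and 27 CPM to 12.9, 10 and 5.53 CPM (-1.54 ± 0.33).

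Lipid mediator genes gave 2 rises and 2 falls among 20 tested members (median 0.12), near the share of all genes, and only the rises held in all leave-one-out fits. Both rises were secreted phospholipases A2, which release fatty acids from membranes and attack bacterial ones. Pla2g2a (chromosome 4, 138831857 to 138835186, annotated as a polymorphic pseudogene in the reference strain) went from 559, 282 and 239 CPM to 1950, 2850 and 3060 CPM (2.87 ± 0.33), and Pla2g5 from 15.8, 18.3 and 19 CPM to 67.5, 85.4 and 38.4 CPM (1.85 ± 0.36). Among immune checkpoint genes 3 of 11 rose and 1 fell, 1 rise in all leave-one-out fits. The tryptophan-degrading Ido1 led them, with 2 reads untreated and 1444 after DSS.

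**Figure D3:**
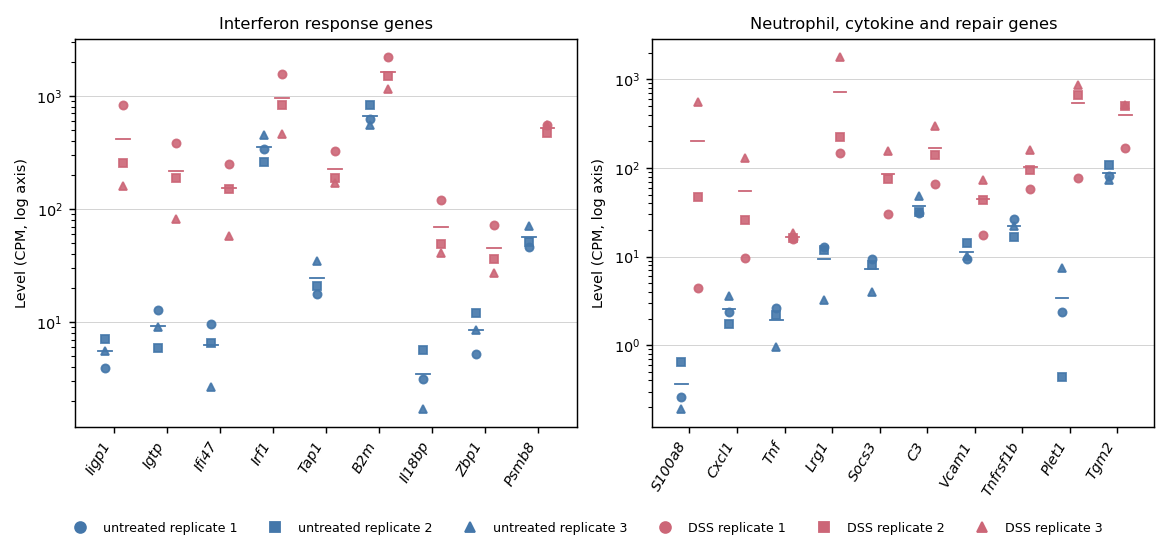
Level in CPM (log axis) of interferon response genes (left) and of neutrophil, cytokine and repair genes (right) in each of the 6 SPF libraries; marker shape gives the replicate and the short line the group mean. DSS replicate 1 (circle) is the highest treated library for Iigp1, Igtp, Ifi47 and Irf1, and DSS replicate 3 (triangle) for S100a8, Cxcl1, Lrg1, Socs3 and C3.

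Cell death genes gave 12 rises and 0 falls among 41 tested members (median 0.36), 5 of them in all leave-one-out fits, and included genes of necroptosis, a lytic death that releases cell contents. Ripk3 (chromosome 14, 55784995 to 55788865), the kinase of the pathway, was at 6.05, 3.7 and 6.85 CPM untreated and at 37.2, 34.6 and 38.4 CPM after DSS (2.72 ± 0.30, adjusted p = 5.6e-05). Its substrate Mlkl, which perforates the membrane, went from 7.1, 13.9 and 5.71 CPM to 43.8, 30.1 and 41.6 CPM (2.11 ± 0.33), and Zbp1, a nucleic acid sensor that recruits RIPK3, from 5.26, 12 and 8.57 CPM to 71.9, 36.2 and 27.2 CPM (2.38 ± 0.41). The death receptor Fas rose by 1.21 ± 0.29. Targets of p53 rose in 1 and fell in 1 of 23 (median -0.25), neither in all leave-one-out fits.

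Of 24 genes of the tight junctions, the seals between epithelial cells, 1 rose and 3 fell, against 12.2% up and 11.9% down among all tested genes. Their median log2 change was -0.39, and 6 of the 24 had a positive change. The falls numbered 1 to 5 when 1 library was left out. Cldn4 (chromosome 5, 134945119 to 134946934), a sealing claudin, fell from 258, 231 and 343 CPM to 133, 73 and 130 CPM (-1.31 ± 0.26, adjusted p = 0.0026), and was the only member called in all leave-one-out fits. Occludin (Ocln) was at 45, 53 and 41.7 CPM untreated and 25.5, 30.5 and 21.1 CPM treated (-0.85 ± 0.22), and without DSS replicate 3 it missed the threshold (-0.73, adjusted p = 0.059). The scaffold Tjp1 did not pass (-0.50 ± 0.26, adjusted p = 0.17). Adhesion genes rose in 5 and fell in 1 of 28, with a median of -0.03, 3 of the rises in all leave-one-out fits. The desmosomal genes Dsc2 (1.04 ± 0.21) and Pkp2 (1.06 ± 0.24) and the intestinal cadherin Cdh17, which went from 431, 459 and 272 CPM to 955, 1090 and 886 CPM (1.33 ± 0.29), rose.

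Genes of the repair epithelium gave 6 rises and 4 falls among 21 tested members (median 0.37), against 12.2% up and 11.9% down among all tested genes. In all leave-one-out fits 4 of the rises and 2 of the falls held. Beside Ly6a, Ly6e of the same family rose from 72.4, 50 and 44.9 CPM to 307, 181 and 172 CPM (1.98 ± 0.30), and transglutaminase 2 (Tgm2), which crosslinks matrix proteins, from 81.3, 107 and 72.7 CPM to 169, 497 and 519 CPM (2.18 ± 0.37). The calcium-binding S100a11 rose by 1.12 ± 0.27. Ctgf, a target of the YAP regulator, fell from 68.1, 70.9 and 194 CPM to 38.8, 17.5 and 45.2 CPM (-1.72 ± 0.42, and -1.05 without untreated replicate 3). The squamous-type gene Sprr1a, also induced in stressed epithelia, went from 10.3, 6.96 and 20.8 CPM to 45.6, 75.6 and 61.3 CPM (2.25 ± 0.54).

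Growth factors of the EGF family, which drive epithelial repair through the receptor EGFR, gave 2 rises and 3 falls among 20 tested genes, close to the 12.2% and 11.9% of all tested genes, with 2 rises and 1 fall in all leave-one-out fits. The ligand Areg did not pass (0.78 ± 0.38, adjusted p = 0.14, and 0.18 without DSS replicate 3). Dusp6 (chromosome 10, 99263231 to 99267489), a phosphatase induced by ERK signalling, rose from 93.1, 159 and 101 CPM to 285, 300 and 448 CPM (1.55 ± 0.28), and Adam10, a sheddase of membrane-bound ligands, by 1.00 ± 0.22. Egf fell from 7.63, 5.87 and 3.62 CPM to 0.365, 0.394 and 0 CPM (-4.28 ± 0.78).

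Signals that set position and fate along the crypt fell in 10 and rose in 1 of 38 tested genes (median -0.54; all tested genes, 11.9% down and 12.2% up), 8 of the falls in all leave-one-out fits. Ihh (chromosome 1, 74945315 to 74951672), the hedgehog ligand of differentiated colonocytes, was at 136, 101 and 128 CPM untreated and at 53.6, 39 and 33.4 CPM after DSS (-1.53 ± 0.23, adjusted p = 0.00046). Its target in the mesenchyme, Gli1, fell from 3.42, 6.3 and 5.33 CPM to 0.365, 0 and 1.44 CPM (-3.11 ± 0.77, -2.51 without DSS replicate 2 and -4.57 without DSS replicate 3), and Hhip, another hedgehog target listed here with smooth muscle, by 1.65 ± 0.25. Among BMP genes, whose signal promotes differentiation, Bmp2 fell from 319, 335 and 433 CPM to 160, 70.9 and 95.4 CPM (-1.74 ± 0.33), Bmp4 fell by 1.49 ± 0.35, the BMP target Id2 by 1.16 ± 0.25 and the BMP antagonist Chrdl1 by 1.66 ± 0.34.

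On the Wnt side Nkd1, a feedback inhibitor, fell from 30.3, 25.4 and 26.7 CPM to 11.1, 9.84 and 6.25 CPM (-1.59 ± 0.27), and the secreted inhibitor Sfrp1 by 1.15 ± 0.26. The only rise was that of Ccnd1, the cyclin of the G1 phase, from 72.9, 175 and 109 CPM to 241, 352 and 373 CPM (1.43 ± 0.29). The stem cell receptor Lgr5 was low throughout and did not pass (-0.55 ± 0.56, adjusted p = 0.50). Of the 10 falls, 5 were lowest in DSS replicate 2 and 5 in replicate 3.

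Colonocytes burn butyrate made by bacteria, which enters through transporters such as SLC5A8 and is oxidized in mitochondria. Of 33 genes of this fuel use 7 fell and 1 rose (median -0.36; all tested genes, 11.9% down), 4 of the falls in all leave-one-out fits. Without DSS replicate 3 the falls numbered 4, and 6 of the 7 were lowest in that library, while the whole list summed to 4720 to 4950 CPM untreated and 3120 to 4400 CPM after DSS, without overlap. Slc5a8 (chromosome 10, 88885992 to 88929515) was at 330, 292 and 199 CPM untreated and at 133, 80.7 and 59.8 CPM after DSS (-1.58 ± 0.29, adjusted p = 0.0016). The regulators of oxidative genes Ppara, from 28.2, 24.6 and 26.3 CPM to 11.5, 8.07 and 5.77 CPM (-1.63 ± 0.29), and Ppargc1a, from 108, 143 and 158 CPM to 70.6, 43.5 and 54.3 CPM (-1.28 ± 0.25), fell. So did Pdk2, a kinase that inhibits pyruvate oxidation (-2.26 ± 0.34), while the acyl-CoA dehydrogenase Acadl rose by 0.98 ± 0.22.

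Glycolysis and hypoxia genes rose in 7 and fell in 1 of 28 (median 0.28), 5 of the rises in all leave-one-out fits, and their sum rose from 4420 to 5070 CPM in untreated libraries to 6080 to 7690 CPM. Hexokinase 2 (Hk2), which traps glucose in the cell, went from 220, 221 and 404 CPM to 598, 934 and 966 CPM (1.56 ± 0.28). The glycolytic regulator Pfkfb3 went from 7.37, 12 and 22.5 CPM to 39.4, 49 and 76.9 CPM (1.96 ± 0.35), and the oxygen-regulated factor Hif1a from 96.3, 101 and 99.2 CPM to 187, 220 and 315 CPM (1.28 ± 0.23). Pgk1 also rose (2.53 ± 0.38), but at 1.74 to 17.8 CPM its level is low for a glycolytic enzyme, and reads shared with processed copies were not counted.

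Genes that make serine and import amino acids, targets of the factor ATF4, rose in 10 and fell in 2 of 26 (median 0.76), 9 of the rises in all leave-one-out fits. Phgdh (chromosome 3, 98313170 to 98339990), which opens serine synthesis, was at 2.1, 3.26 and 2.48 CPM untreated and at 7.84, 11.8 and 33.2 CPM after DSS (2.72 ± 0.51, and 1.90 without DSS replicate 3). Enzymes of the following steps rose too: Psat1 from 3.95, 6.52 and 14.7 CPM to 17, 30.9 and 73.5 CPM (2.24 ± 0.51, 1.5 without DSS replicate 3 and 2.91 without untreated replicate 3), and the mitochondrial folate enzymes Shmt2 by 1.56 ± 0.33 and Mthfd2 from 4.74, 6.52 and 5.52 CPM to 17.1, 32.3 and 42.8 CPM (2.44 ± 0.34). Asparagine synthetase (Asns) rose by 1.68 ± 0.34. The cystine importer Slc7a11 went from 1.32, 2.17 and 3.81 CPM to 10.2, 10.2 and 36.8 CPM (2.91 ± 0.54, and 2.03 without DSS replicate 3), and the leucine transporter Slc7a5 from 7.37, 5.22 and 7.05 CPM to 9.48, 44.9 and 44.2 CPM (2.32 ± 0.44). Atf4 itself did not pass (0.86 ± 0.34, adjusted p = 0.073).

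Ribosome biogenesis genes gave 13 rises and 0 falls among 29 tested members (median 0.69; all tested genes, 12.2% up), 4 of them in all leave-one-out fits. Grwd1, a ribosome assembly factor, was at 9.21, 12.6 and 11.4 CPM untreated and at 25, 38.6 and 72.6 CPM treated (2.02 ± 0.38), nucleophosmin (Npm1) at 311, 325 and 201 CPM and at 503, 638 and 967 CPM (1.33 ± 0.28), and Rrp12 rose by 1.77 ± 0.38. Polyamine and nucleotide genes rose in 12 and fell in 1 of 31 (median 0.60), 6 of the rises in all leave-one-out fits. The subunits of ribonucleotide reductase, which makes DNA precursors, both rose: Rrm2 (chromosome 12, 24708241 to 24714146) from 14.7, 8.91 and 12.2 CPM to 42.3, 65.9 and 126 CPM (2.71 ± 0.38) and Rrm1 by 1.67 ± 0.27. Thymidine kinase (Tk1) rose by 1.19 ± 0.28. Cytidine deaminase (Cda; chromosome 4, 138338424 to 138367992), which turns cytidine into uridine, was the exception and fell from 90, 79.6 and 84.5 CPM to 25.7, 6.69 and 18.5 CPM (-2.32 ± 0.38).

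**Figure D4:**
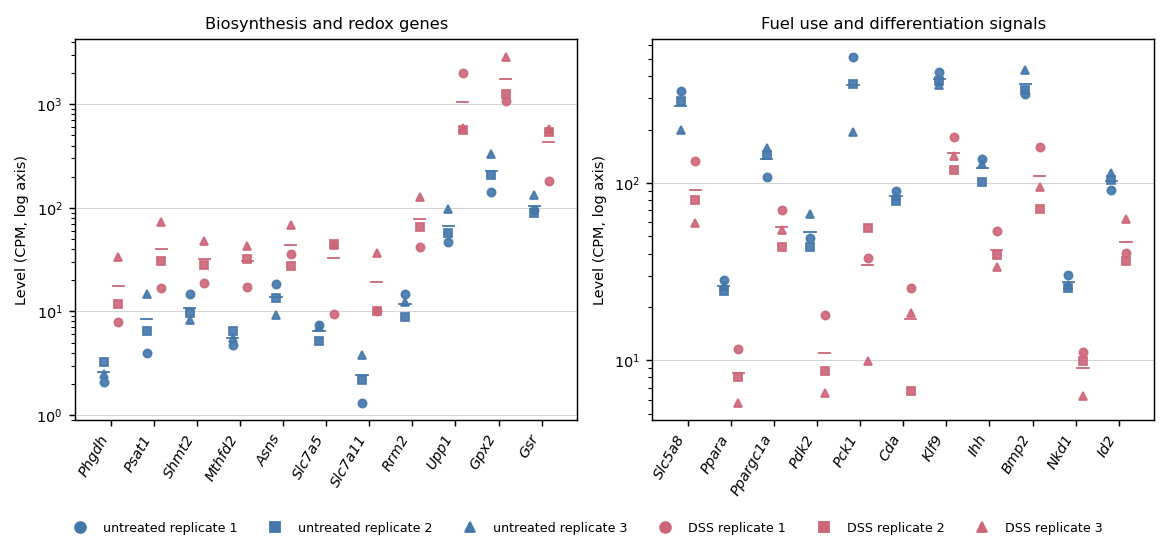
Level in CPM (log axis) of biosynthesis and redox genes (left) and of fuel use and differentiation genes (right) in each of the 6 SPF libraries; marker shape gives the replicate and the short line the group mean. The treated libraries of Gpx2 (1080 to 2880 CPM) lie above the untreated ones (143 to 333 CPM), and those of Slc5a8 (59.8 to 133 CPM) below (199 to 330 CPM).

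The endoplasmic reticulum answers a load of unfolded protein by raising chaperones through the ER stress response element (ERSE; CCAAT, any 9 bases, CCACG), which the factor ATF6 binds together with NF-Y. Of 27 genes 9 rose and 2 fell (median 0.41), 4 of the rises and 0 of the falls in all leave-one-out fits; the rises numbered 5 without DSS replicate 2 and 5 without untreated replicate 2, and the list summed to 4860 to 5430 CPM untreated and 7160 to 9970 CPM after DSS. The promoters of the chaperones Hspa5 and Hsp90b1 are shown because they hold this element. They are printed as above, Hspa5 from chr2:34771840-34772089 on the plus strand with the element 65 bases before the start, and Hsp90b1 from chr10:86705445-86705694 on the minus strand with 2 elements, the first 212 bases before the start and the other on the opposite strand.
Hspa5: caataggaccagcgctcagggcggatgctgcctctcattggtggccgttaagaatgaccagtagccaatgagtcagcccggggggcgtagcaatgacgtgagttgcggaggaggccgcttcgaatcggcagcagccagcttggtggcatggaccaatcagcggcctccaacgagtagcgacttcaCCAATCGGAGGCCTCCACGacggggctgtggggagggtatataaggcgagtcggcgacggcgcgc
Hsp90b1: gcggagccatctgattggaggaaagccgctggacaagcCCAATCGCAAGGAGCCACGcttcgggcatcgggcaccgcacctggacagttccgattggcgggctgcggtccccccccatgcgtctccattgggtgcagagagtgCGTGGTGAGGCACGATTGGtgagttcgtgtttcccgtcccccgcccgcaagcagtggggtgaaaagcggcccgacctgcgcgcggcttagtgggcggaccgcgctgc

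The ERSE letters occurred in 5 of the 8 matched genes of this list that rose (62.5%), in 3 of 14 that did not, and in 0.137% of all genes (0.119% of windows). Hspa5 was at 581, 660 and 899 CPM untreated and at 1050, 2510 and 3210 CPM after DSS (1.66 ± 0.33, adjusted p = 0.0023), and Hsp90b1 at 337, 331 and 338 CPM and at 556, 739 and 954 CPM (1.16 ± 0.23). Both were lowest in DSS replicate 1 among the treated libraries. The translocon subunits Sec61b (1.70 ± 0.25) and Ssr1 (0.99 ± 0.24) rose as well. Of the other ERSE genes that rose, Canx missed the threshold without DSS replicate 2 (adjusted p = 0.064), DSS replicate 3 (adjusted p = 0.053) or untreated replicate 2 (adjusted p = 0.069), Pdia6 without DSS replicate 2 (adjusted p = 0.081) or untreated replicate 2 (adjusted p = 0.075), and Syvn1 without DSS replicate 2 (adjusted p = 0.11) or untreated replicate 1 (adjusted p = 0.057). The spliced factor Xbp1 did not pass at the gene level (0.41 ± 0.25, adjusted p = 0.26), which says nothing of its splicing.

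Antioxidant genes rose in 6 and fell in 4 of 30, against 12.2% up and 11.9% down among all tested genes. In all leave-one-out fits 5 of the rises and 2 of the falls held. Gpx2 (chromosome 12, 76792333 to 76795554), the glutathione peroxidase of the gut epithelium, went from 143, 206 and 333 CPM to 1080, 1270 and 2880 CPM (2.94 ± 0.47), and glutathione reductase (Gsr) from 94.7, 89.1 and 132 CPM to 181, 545 and 583 CPM (2.05 ± 0.38). The thioredoxin genes Txnrd1 (1.05 ± 0.26) and Srxn1 (1.23 ± 0.25) and the NADPH-forming Pgd (1.33 ± 0.28) rose. Gstm3, a glutathione transferase with close relatives, fell by 1.73 ± 0.38, and Sod3, the extracellular superoxide dismutase of vessels and stroma, by 1.34 ± 0.30. Genes of the steroid response rose in 2 and fell in 2 of 22, no larger a share than among all tested genes, and 1 fall held in all leave-one-out fits, that of Klf9 (chromosome 19, 23141226 to 23168134), a factor induced by glucocorticoids (424, 374 and 357 CPM untreated, 182, 118 and 142 CPM treated, -1.38 ± 0.21). Retinoid genes gave 1 rise and 4 falls among 21 tested members, 1 rise and 1 fall in all leave-one-out fits, while their sum went from 2160 to 2300 CPM untreated to 718 to 1600 CPM treated.

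Marker genes of the wall beneath the epithelium were lower in DSS colon. In such bulk tissue fewer cells of a type and less RNA per cell cannot be told apart. Of 14 smooth muscle genes 11 fell and 0 rose (median -1.61), 9 in all leave-one-out fits, and their sum went from 7580 to 8910 CPM to 1840 to 4250 CPM; Mylk, the kinase that starts contraction, fell from 1320, 1740 and 2270 CPM to 853, 768 and 647 CPM (-1.23 ± 0.31) and Acta2 by 1.59 ± 0.39. Of 23 fibroblast genes 12 fell and 1 rose (median -0.90), 7 of the falls in all leave-one-out fits. The proteoglycan Dcn was at 847, 467 and 436 CPM untreated and at 214, 159 and 228 CPM treated (-1.54 ± 0.26), and the collagen Col6a1 and the matrix protein Dpt fell by 1.43 ± 0.27 and 1.5 ± 0.29. Of 17 enteric nerve, glia and pacemaker cell genes 6 fell and 0 rose (median -0.92), 2 of them in all leave-one-out fits, among them the chloride channel Ano1, from 581, 522 and 488 CPM to 303, 209 and 88.4 CPM (-1.40 ± 0.33).

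Endothelial genes fell in 5 and rose in 1 of 24 (median -0.64), 2 of the falls in all leave-one-out fits, but their summed level overlapped between the groups. Cd34 (chromosome 1, 194938819 to 194961279), an antigen of capillary endothelium and stromal cells, was at 30.5, 33.5 and 29.7 CPM untreated and at 8.21, 7.48 and 6.49 CPM after DSS (-2.07 ± 0.26, adjusted p = 0.00014), and the lymphatic receptor Lyve1 fell by 1.36 ± 0.28. Vcam1, through which activated endothelium holds leukocytes, rose from 9.47, 14.1 and 10.1 CPM to 17.7, 43.7 and 73.3 CPM (1.99 ± 0.40). The part of the lower muscle and stromal marker levels in the other results was not tested.

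Of 20 tested monocyte and macrophage genes 4 rose and 1 fell (median 0.24), each in all leave-one-out fits. The Fc receptor Fcgr4 went from 0.263, 0.217 and 0.571 CPM to 2.19, 11.6 and 24.5 CPM (5.03 ± 0.82, and 4.17 without DSS replicate 3), and the resident macrophage product Apoe, which other cells make too, fell from 234, 194 and 204 CPM to 43.2, 76.8 and 117 CPM (-1.42 ± 0.31). Of 7 tested dendritic cell genes 2 rose and 1 fell, of which 1 rise held in all leave-one-out fits. It was that of Itgax, the integrin CD11c of dendritic cells and macrophages, which rose from 7.37, 5.43 and 8.38 CPM to 26.1, 24.4 and 32.9 CPM (1.97 ± 0.34). The lectin Cd209a was called lower at few reads (-2.58 ± 0.87, adjusted p = 0.040), a call that held in 1 of the 6 fits, and Fscn1 did not pass (-0.85 ± 0.33, adjusted p = 0.069). Of 6 tested mast cell and eosinophil genes 2 fell and 0 rose, 1 in all leave-one-out fits: the protease Mcpt4 fell from 6.05, 6.74 and 1.33 CPM to 0.729, 0.787 and 0.481 CPM (-2.75 ± 0.66). Other mast cell proteases did not pass and had changes of both signs, 1.92 ± 0.81 for Mcpt2, 1.10 ± 0.73 for Mcpt1 and -0.37 ± 0.53 for Cma1. T cell markers were low in both groups. Cd3e had 1 to 9 reads in every library, and the summed level of T and natural killer cell markers was 45.3 to 61.8 CPM untreated and 55.4 to 63.9 CPM after DSS. B and plasma cell genes gave no call among 11 tested in edgeR's test, though their median was -0.87 and only 1 had a positive change.

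Neutrophil markers were carried by DSS replicate 3. The sum of 16 markers was 6.52 to 9.47 CPM untreated, 18.6 and 103 CPM in DSS replicates 1 and 2 and 1360 CPM in replicate 3, and 4 of the 6 tested members rose in the full fit, against 1 to 6 when 1 library was left out (1 without untreated replicate 1 or 3, 2 without untreated replicate 2). Ltf alone kept its call in all 6 fits. The groups of Il1r2 overlapped and its call held in 2 of them, and that of S100a8 held in 3. Retnlg had 2 reads untreated and 4, 6 and 374 reads after DSS, a ratio of 178 (95% exact interval 48.9 to 1480). The collagenase Mmp8, stored in neutrophil granules, had 0 reads in every other SPF library and 109 in replicate 3, and Ngp had 70 there, 0 in the other treated libraries and 1 untreated. S100a9, a subunit of the abundant neutrophil protein calprotectin, had 2 reads untreated and 36, 151 and 2199 treated, a ratio of 1110 (306 to 9140), and its call was lost without untreated replicates 1, 2 or 3 (adjusted p = 0.097, 0.090 and 0.092).

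**Figure D5:**
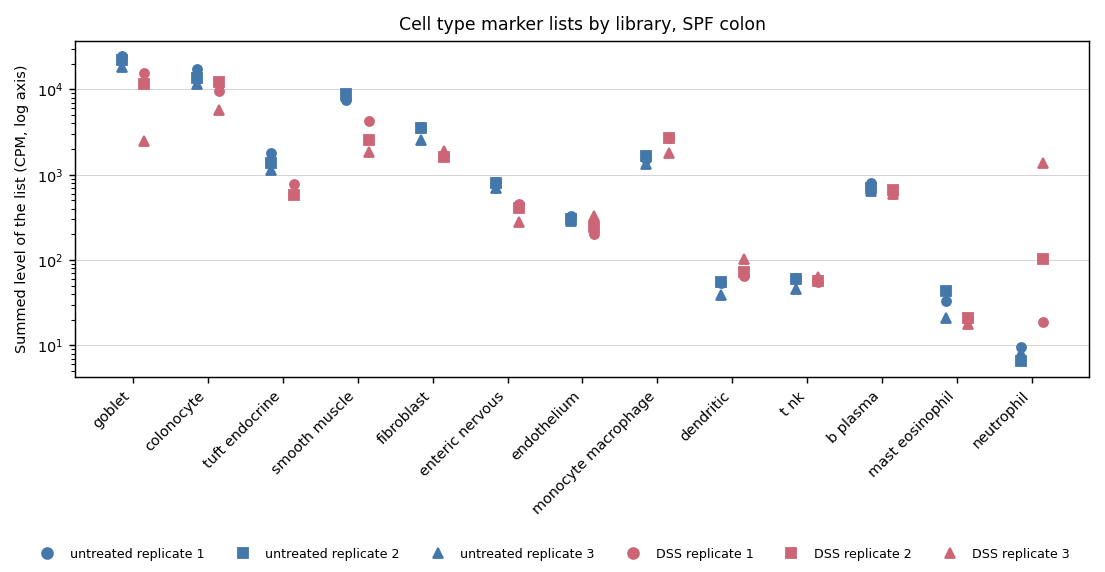
Summed level in CPM (log axis) of marker lists of 13 cell types in each of the 6 SPF libraries; blue, untreated; red, DSS; marker shape gives the replicate. Goblet markers are lowest (2510 CPM) and neutrophil markers highest (1360 CPM) in the same treated library, replicate 3.

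Among epithelial lineages, goblet cell genes fell in 7 and rose in 1 of 12 tested (median -1.61), 5 of the falls in all leave-one-out fits, and each of the 7 was lowest in DSS replicate 3. The list summed to 18500 to 24700 CPM untreated and to 15800, 11700 and 2510 CPM in DSS replicates 1, 2 and 3. The lectin Zg16 was at 7830, 8810 and 8000 CPM untreated and at 3880, 2800 and 587 CPM treated (-1.76 ± 0.47). The mucin Muc2 fell from 8460, 4920 and 3510 CPM to 2150, 1740 and 329 CPM (-2 ± 0.50), and missed the threshold without untreated replicate 1 (-1.58, adjusted p = 0.055). Colonocyte genes fell in 7 and rose in 2 of 17 (median -0.35), 5 of the falls in all leave-one-out fits. The sulfate transporter Slc26a2 went from 197, 322 and 531 CPM to 84.3, 83.8 and 55.5 CPM (-2.23 ± 0.31), Ggh, a folate hydrolase, fell by 1.25 ± 0.25, and the water channel Aqp4 rose from 102, 74.4 and 39.4 CPM to 224, 580 and 374 CPM (2.45 ± 0.50). Tuft and hormone cell genes fell in 5 and rose in 2 of 12, 2 of the falls in all leave-one-out fits; Trpm5, the cation channel of tuft cells, had 29 reads untreated and 0 treated, at least 10.4-fold lower.

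Over all 1570 genes that rose, DSS replicate 3 was the highest library in 936 (59.6%), replicate 2 in 385 (24.5%) and replicate 1 in 241 (15.4%), and of the 1527 that fell replicate 3 was the lowest in 772 (50.6%). Replicate 3 was the highest in 10 of 13 ribosome biogenesis genes that rose, 7 of 10 amino acid genes and 6 of 7 glycolysis genes. Replicate 1 was the highest in 6 of 8 interferon signalling genes, 7 of 12 class I genes and 6 of 12 cell death genes, against 1, 1 and 2 for replicate 3. These counts describe 3 libraries and carry no test.

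Whether the DSS effect depended on how the mice had been colonized was tested by the difference between the effect in COL and in SPF mice, which share no library. DSS in COL colon raised 532 genes (4.14%) and lowered 386 (3%). Of the 1570 rises in SPF mice 415 were also called up in COL mice (26.4% of the SPF rises and 78% of the COL rises), and of the 1527 falls 290 were shared (19% and 75.1%). No gene passed for the difference itself in edgeR's test; 1122 (8.73%) had an unadjusted p under 0.05, and DESeq2 called 17. Of the 15 largest SPF rises 14 were called up in COL mice, and of the 15 largest falls 10 were called down. Trim15 had an unadjusted p of 5.4e-05 (1.5 in COL), Dusp6 0.00036 (-0.21 in COL) and Tapbpl 0.00043 (0.69 in COL), none of which passed the adjustment. Ribosome biogenesis genes gave 13 rises in SPF mice and 0 in COL mice, with a median difference of -0.56 and 4 of 29 at an unadjusted p under 0.05, so a difference for this group was not shown.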

How the data were processed

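The authors deposited raw counts of reads per gene for each library; per the submitters' processing notes Trimmomatic 0.36, FastQC 0.11.5, STAR 2.5.3a, HTSeq and the mm10 build were used, and per the labels' protocols libraries were made with a 3′ messenger RNA kit for Ion Torrent sequencing. Rows that name no gene were left out: 30.71 to 36.95% of the reads of an SPF library fitted several places and 13.65 to 20.77% no gene, so 44.57 to 52.74% of the reads were analysed, and counts of near-identical genes are uncertain.

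All 12 colon libraries were fitted together in edgeR 4.0.16 (R 4.3.3; filterByExpr, TMM, robust quasi-likelihood fit), with 1 mean for each of 4 groups, and p-values were adjusted by Benjamini-Hochberg over all tested genes. The standard error is the log2 fold change divided by the root of F. Replicate numbers in the titles did not pair the libraries. Alternatives were DESeq2 1.42.0 and its size factors, no filter, a replicate block, the 6 SPF libraries alone and leaving out each library. Named genes were the 15 largest rises and 15 largest falls that were called in the full fit and in all 6 leave-one-out fits, whose groups did not overlap and whose average log2 CPM reached 3, and further the members of 42 gene lists (982 genes, of which 808 were tested). The members and lists were chosen with earlier results of these data known. On data simulated for this comparison over 12855 genes, edgeR recovered 14% of 100 genes changed 2-fold and 88% of 100 changed 4-fold, with 6 false calls. No other gene was changed there, against 3097 called in the data. The Benjamini-Hochberg adjustment was therefore stricter in the simulation, and its recovery is not that of the real comparison. Promoters are from RefSeq, GRCm38.p6. Results of some list members are not reported here.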

Additional observations from a re-analysis of the deposited data

How the results depend on the processing

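The number of genes called between DSS-treated and untreated SPF colon was 3097, and 1728 when only the 6 SPF libraries were fitted, which leaves fewer libraries to estimate the spread. Leaving out 1 SPF library gave 1915 to 3409 calls, with 1915 without DSS replicate 3 and 2021 without DSS replicate 2. With a replicate block 2756 genes were called, 2695 of them shared with the fit without it. The replicate numbers were not taken to pair the libraries, since same-numbered libraries had correlations of their deviations of -0.01, -0.07 and 0.06, against -0.07 to 0.1 for different numbers. DESeq2 called 3561 genes. For the difference between COL and SPF mice, edgeR called 0 genes and DESeq2 17; the cause was not tested. Leaving out 1 library gave 0 to 1 such calls, with 1 without SPF DSS replicate 1 and 1 without SPF untreated replicate 2. In the simulation 2-fold changes were mostly missed, but far fewer genes changed there than were called here, so its recovery does not carry over to these data. With 3 libraries a group, genes that did not pass were not shown to be unchanged. Among the genes given with a fold change, Cma1, which did not pass (-0.37), turned to 0.21 without untreated replicate 2 and ranged from -0.65 to 0.21 over the fits that left out 1 library.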
